A study of Rattus norvegicus with 6 samples.

Results

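Wdyhv1 and 6 companion genes of the N-degron pathway were followed in RNA pulled down from GH4C1 cells, an established rat pituitary cell line that makes prolactin and growth hormone. The 7 genes were selected by name from a table of 32883 genes, as the N-terminal amidases Wdyhv1 and Ntan1, the arginyltransferase Ate1 and the recognition proteins Ubr1, Ubr2, Ubr3 and Ubr4. Each name matched 1 row, and all 7 genes had enough counts to be tested. Wdyhv1 headed the selection because its counts differed so much between the pull-downs, and the others were added for their function. The values of the 7 genes between the pull-downs are therefore given as a description, without p-values. Where the text says that one of them was past the threshold of the fit, that too is a description and tests nothing.

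The cells were wild type and all were treated with psoralen, which links base-paired RNA strands. The study sought RNAs in direct contact with the long noncoding RNA Neat1. RNA was retrieved with oligo pool A or oligo pool B, with 3 libraries for each pool and no other factor. The oligo sequences, any control role of a pool and whether libraries came from separate cultures are not given in the sources used here, so errors measure the spread between these libraries, which may be technical. Libraries held between 1826390 and 3685899 counts, and a count of 0 in a library would allow up to between 0.814 and 1.64 CPM (counts scaled to a total of 1e+06 per library). A higher CPM is a larger share of the RNA recovered with a pool. How much of an RNA the cells held, per cell or in how many cells, was not measured. The defining markers of the line's lineage were present in every library, with pool means of 170 and 166 CPM for Gh1, 713 and 445 CPM for Prl, and 158 and 204 CPM for Pou1f1 (pools A and B). Of 5 matched markers of other cell types, Tshb and Fshb were at 0 in all libraries, and the 5 together summed to between 9.49 and 25.1 CPM with pool A and between 40.9 and 45.0 CPM with pool B, mostly from Lhb. Their part in the results was not tested.

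The N-degron pathway sets the lifetime of a protein by its first amino acid. Wdyhv1, now named Ntaq1, removes the amide from an N-terminal glutamine, and Ntan1 does the same for asparagine. The acidic residues that result are joined to arginine by Ate1, and the arginine is bound by ubiquitin ligases with a UBR box, such as Ubr1, Ubr2 and Ubr4, which send the protein to the proteasome. The measurements here are of the RNAs of these genes, not of the proteins.

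Wdyhv1 (ENSRNOG00000006700) was abundant with pool A and scarce with pool B. Its counts with pool A were 6538, 6269 and 6253 in replicates 1, 2 and 3, or 1774, 2479 and 1962 CPM. With pool B they were 81, 37 and 82, or 27.6, 20.3 and 31.0 CPM. Every pool A library lay far above every pool B library, and the ratio of a pool A to a pool B library was between 57.2 and 122 over the 9 combinations. On the log2 scale the difference between pools, fitted with edgeR, was 6.43 ± 0.20 (SE), an 86.1-fold difference and rank 3 in favour of pool A among 11582 tested genes. Within pool A the raw counts of Wdyhv1 spanned only a 1.05-fold range, while the library totals spanned a 1.46-fold range. Its CPM was therefore highest in replicate 2, the smallest pool A library, and lowest in replicate 1, the largest. The coefficient of variation of its pool A CPM was 17.6%, against a median of 20.5% over all tested genes. With library sizes scaled by TMM, edgeR's trimmed mean of M-values, the pool A values were 1892, 2746 and 1934 CPM.

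Ntan1, the asparagine counterpart of Wdyhv1, had few counts in any library. It had 23, 12 and 14 counts with pool A and 10, 13 and 5 with pool B, or 6.24, 4.75 and 4.39 CPM against 3.41, 7.12 and 1.89 CPM. The ranges overlapped, since pool B replicate 2 was the highest of the 6 libraries. Its log2 fold change was 0.51 ± 0.65 (SE), with a 95% interval from -0.77 to 1.79. Leaving out pool B replicate 2 gave 1.07, and leaving out pool B replicate 3 gave 0.16. A difference between the pools was thus not detectable for Ntan1 at this depth.

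Ate1, which attaches arginine to the acidic N-terminus that the amidases leave, was higher with pool A. Its values were 44.0, 30.5 and 41.4 CPM with pool A and 14.3, 21.9 and 14.8 CPM with pool B. The ranges did not overlap, with the lowest pool A library 1.39 times the highest pool B library. The log2 fold change was 1.35 ± 0.27 (SE), a 2.55-fold difference. Both extremes came from the replicates numbered 2, which were the lowest with pool A and the highest with pool B.

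**Figure D1:**
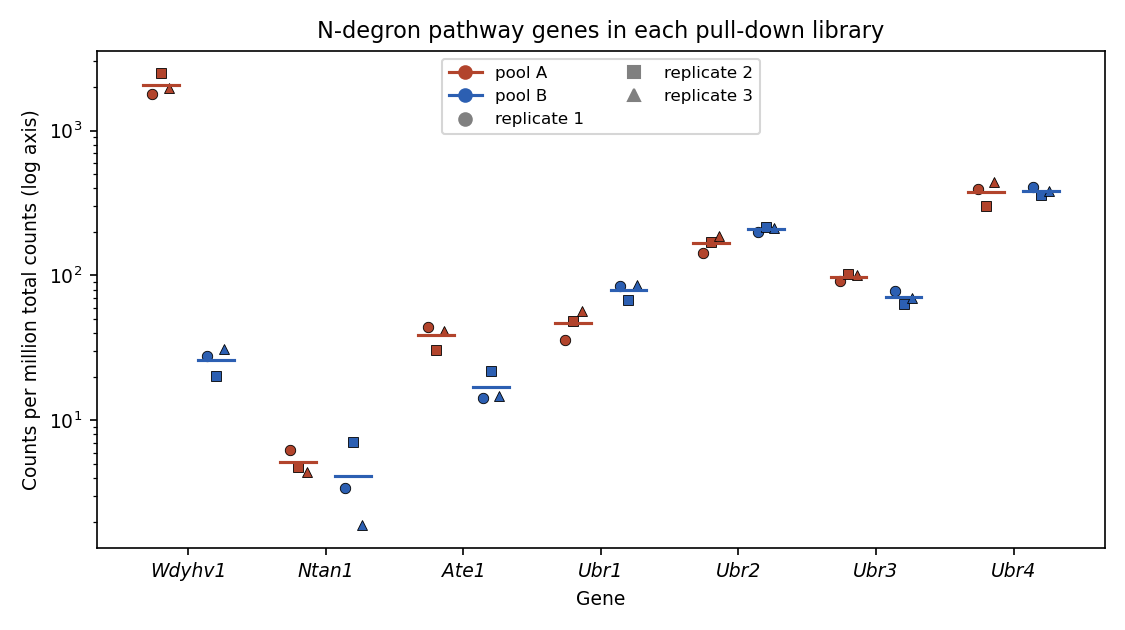
CPM (log axis) of the 7 genes in each library, with pool A in red, pool B in blue, marker shapes for replicate numbers and bars for pool means (n = 3). Wdyhv1 stands at 1774 to 2479 CPM with pool A and 20.3 to 31.0 CPM with pool B, while the pools overlap for Ntan1 and Ubr4.

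The 4 recognition genes did not differ in the same direction. Ubr1, a ligase of the classical pathway, was lower with pool A, at 35.8, 48.2 and 57.1 CPM against 84.5, 67.9 and 85.9 CPM with pool B. All pool B libraries lay above all pool A libraries. The log2 fold change was -0.63 ± 0.20 (SE), and leaving out pool A replicate 1 gave -0.46 and leaving out pool B replicate 3 gave -0.56, where the gene was no longer past the threshold of an adjusted p of 0.05.

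Ubr2, the close paralog of Ubr1, had 144, 169 and 186 CPM with pool A and 198, 215 and 214 CPM with pool B. The ranges lay just apart, with pool B above. The log2 fold change of -0.19 ± 0.14 (SE) had a 95% interval from -0.46 to 0.09, which includes no difference. The count ratio of Ubr1 to Ubr2, which does not depend on how libraries are scaled, averaged 0.281 ± 0.029 over the pool A libraries and 0.381 ± 0.058 over those of pool B (SD, n = 3). It was below the pool B range in every pool A library, although 0.307 in pool A replicate 3 came close to 0.316 in pool B replicate 2. How reads that fit both paralogs were counted is not given in the sources used here.

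Ubr3, a UBR box ligase not known for binding the classical N-degrons, went the other way. It had 91.4, 101.6 and 100.1 CPM with pool A and 78.7, 63.5 and 70.0 CPM with pool B. The pool A libraries were all above the pool B libraries, and the log2 fold change was 0.61 ± 0.17 (SE). Its count ratio to Ubr2 averaged 0.592 ± 0.050 over the pool A libraries and 0.340 ± 0.052 over those of pool B (SD, n = 3), with no overlap. The log2 fold changes of Ubr1 and Ubr3 lay 1.23 ± 0.26 (SE) apart.

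Ubr4, the giant member of the family, did not separate the pools. It had 393, 302 and 440 CPM with pool A and 411, 359 and 384 CPM with pool B. Pool A held both the highest and the lowest library, so the pool B values fell inside the pool A range. The log2 fold change was 0.12 ± 0.13 (SE), with a 95% interval from -0.15 to 0.38, and it was -0.02 when libraries were scaled by total counts alone.

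As a description, 2 of the 6 companions favoured pool A past an adjusted p of 0.05 in edgeR (Ate1 and Ubr3) and 1 favoured pool B (Ubr1). Over all tested genes 18.6% favoured pool A and 22.0% favoured pool B. Wdyhv1 was chosen for its difference and is not counted here. CPM ranges lay apart for 2 of the 6 with pool A above and for 2 with pool B above, where all tested genes gave 18.9% and 30.2%, or 49.1% in either direction. The median log2 fold change of the 6 companions was 0.31, against 0.02 over all tested genes. Scaling by total counts alone moved the median of all tested genes by -0.14, and upper-quartile scaling moved it by 0.10. Except for Wdyhv1 and Ate1, the companions lay between -0.63 and 0.61, inside the bulk of all genes, whose median size of difference was also 0.61.

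**Figure D2:**
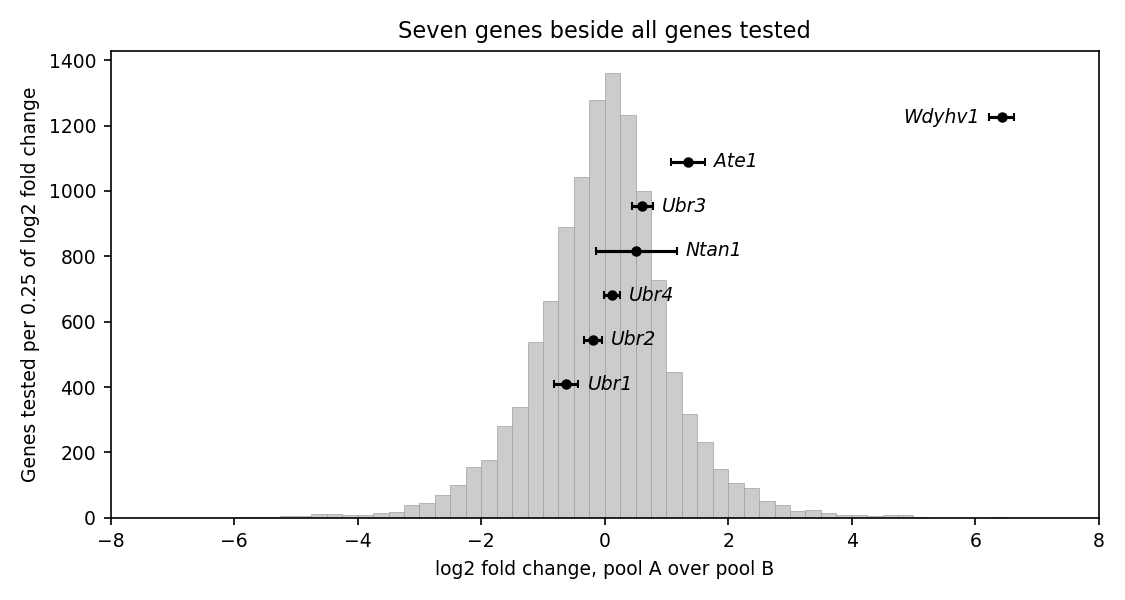
Histogram of log2 fold changes (pool A over pool B) of all 11582 tested genes, in bins of 0.25, with the 7 genes as points and their standard errors as bars. The height of a point carries no value. Wdyhv1 at 6.43 lies near the right end of the histogram, at rank 3, and the other 6 lie between -0.63 and 1.35.

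The rows next to Wdyhv1 in the table were read to see how far its difference extended. Of consecutive rows matched to RefSeq, 98.9% shared a chromosome, and 94.2% of those stood in ascending order, so the table follows the RefSeq order for most rows but not all. RefSeq places the gene on rat chromosome 7 of the GRCr8 assembly, between Atad2 and Fbxo32. A small nuclear and a small nucleolar RNA gene overlap it there. The adjacent rows, a U7 copy and Gm22488, held at most 2 counts in any library. The nearest tested row after Wdyhv1 was Atad2, which encodes a bromodomain ATPase of chromatin.

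Atad2 was also far more abundant with pool A. It had 3288, 4681 and 3912 CPM with pool A and 161.6, 147.8 and 140.7 CPM with pool B, with no overlap. Its log2 fold change was 4.87 ± 0.18 (SE), at an adjusted p of 1.15e-17 (edgeR). The libraries had 0.540, 0.530 and 0.501 counts of Wdyhv1 per count of Atad2 with pool A, and 0.171, 0.137 and 0.220 with pool B. The ratio was thus nearly constant within pool A and lower in every pool B library, so the difference was larger for Wdyhv1 than for its neighbour. In the table Wdyhv1 stands between Zhx1 and Atad2, while RefSeq has Atad2 between Zhx1 and Wdyhv1. The table gives no coordinates, so whether the gene models of this pair overlap, or whether reads were separated by strand, was not tested.

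The large difference did not extend to the other rows nearby. Zhx1, the nearest tested row on the other side and a transcriptional repressor, was higher with pool A by 0.94 ± 0.16 (SE), at an adjusted p of 3.54e-05 (edgeR). Among the other 6 tested rows within 10 rows of Wdyhv1, log2 fold changes were between -0.72 and 0.28, and 2 of them (RGD1310852 and Fbxo32) were higher with pool B. A further 12 rows were too low to test, with at most 27 counts in a library. Over the whole table, consecutive tested rows had little in common (Spearman rho 0.063 over 11581 pairs, across genes, which are not independent replicates). In 9.74% of these pairs both rows were called in the same direction. Log2 fold changes were above 4 in both rows of 2 pairs, Wdyhv1 with Atad2 and a pair of clone-named rows, and below -4 in both rows of 6 pairs.

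**Figure D3:**
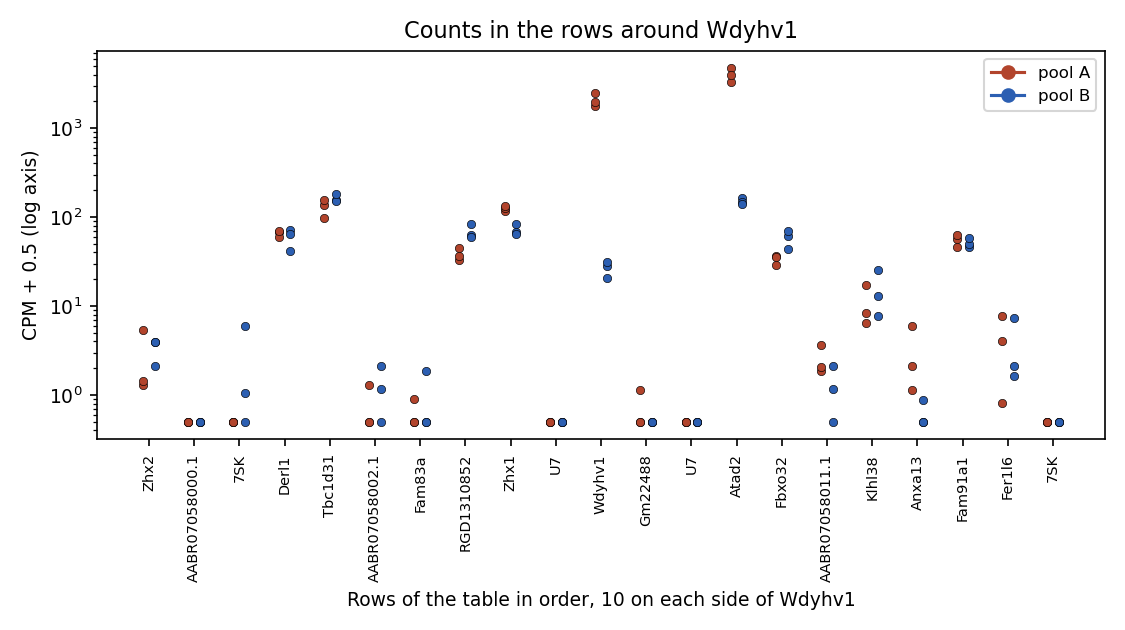
CPM plus 0.5 (log axis) in each library for the 21 rows centred on Wdyhv1, in table order, with pool A in red and pool B in blue. Wdyhv1 and Atad2 stand out with pool A, at 1774 CPM or more in every library, and have between 20.3 and 161.6 CPM with pool B.

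The nearest tested rows of the 6 companion genes were read in the same way. Ntan1 lies between Rrn3, a polymerase I factor that was higher with pool A (log2 fold change 2.49 ± 0.32, SE, edgeR adjusted p = 4.16e-07), and Pdxdc1, which was higher with pool B (-0.66 ± 0.22, SE, edgeR adjusted p = 0.0192). For Rrn3, leaving out pool B replicate 2, where it was highest among the pool B libraries, gave 3.14. RefSeq shows Pdxdc1 overlapping Ntan1, and whether they share reads was not tested. The Pdxdc1 call was lost with pool A replicate 3 (-0.47) or pool B replicate 1 (-0.60) or 2 (-0.62) left out. Ubr1, which was higher with pool B, stands between Ttbk2 and Tmem62, which were higher with pool A by 0.86 ± 0.29 and 0.83 ± 0.33 (SE), with edgeR adjusted p of 0.0184 and 0.0472. Ttbk2 was not past the threshold with total counts alone (0.73) or without pool A replicate 3 (0.69) or pool B replicate 2 (0.78). Tmem62 lost the threshold without pool A replicate 1 (0.70) or 2 (0.87) and without pool B replicate 1 (0.87) or 2 (0.63), and also with total counts alone (0.69), no filter (0.83), limma-voom (0.82) or the replicate block (0.85). Ubr2 has Trerf1, a transcriptional regulator, as its nearest tested row on one side, which was higher with pool A (1.70 ± 0.16, SE, edgeR adjusted p = 1.1e-09), while Bicral on the other side was not past the threshold (-0.39 ± 0.17, SE) unless libraries were scaled by total counts alone (-0.53). Ubr3 has Myo3b, an unconventional myosin, on one side, which was higher with pool B (-1.70 ± 0.29, SE, edgeR adjusted p = 1.98e-05), and Mettl5 on the other, which was not past the threshold (0.05 ± 0.32, SE). Ate1 has the clone-named row AABR07005794.1 on one side, which was higher with pool B (-1.82 ± 0.62, SE, edgeR adjusted p = 0.0200), and Tacc2 on the other, which was not past the threshold (0.03 ± 0.32, SE). The clone-named row had at most 40 counts in a library, and its call was lost with pool A replicate 3 (-1.55) or pool B replicate 1 (-1.41) left out. Neither Emc1 nor Aldh4a1, on the sides of Ubr4, was past the threshold.

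The genes whose pattern over the 6 libraries was most like that of Wdyhv1 included Maf1, Atad2, Sap30 and Maea. Likeness was the root mean square difference of log2 CPM after each gene was centred on its own mean, over genes with symbols and a mean of at least 10 counts. Their differences from Wdyhv1 were 0.77, 0.81, 0.89 and 0.89 on the log2 scale. Because Wdyhv1 differed so much between pools, this measure is set mostly by that difference, for which the gene was chosen. Whether these genes share more with Wdyhv1 than a large difference was not tested. Each had a smaller difference between pools than Wdyhv1, with log2 fold changes from 4.87 for Atad2 to 5.07 for Sap30. Without pool B replicate 2, only 3 of the 5 most similar genes were still among the 5.

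Beyond the 7, a list of 62 further N-degron genes was read by role. Of these, 56 were tested, 18 favoured pool A and 10 favoured pool B past the threshold, which made 50.0% called against 40.6% of all tested genes. The median log2 fold change was 0.26, with 0.02 for all genes. The list held genes with large differences in both directions, from -2.24 for Sqstm1 to 4.96 for Maea. It was written with earlier results of these data known, those for Tardbp among them, so its shares are a description.

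Other UBR box proteins included Ubr7, a PHD finger ligase, and Fbxo11, an F-box protein, and both were higher with pool B. Ubr7 had 51.3, 44.3 and 37.0 CPM with pool A and 77.0, 88.7 and 95.7 CPM with pool B, and Fbxo11 had 14.1, 14.6 and 15.1 CPM against 52.1, 40.0 and 64.3 CPM. The ranges did not overlap for either gene. Their log2 fold changes were -0.82 ± 0.20 and -1.70 ± 0.26 (SE), at adjusted p of 0.00119 and 5.22e-06 in edgeR. Both were named after their values were seen, as relatives of the recognition genes.

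Partners of these ligases also went both ways. Of 8 listed together with the UBR box proteins, 7 were tested, 2 favoured pool A and 3 favoured pool B past the threshold, where all tested genes gave 18.6% and 22.0%. Huwe1, a large ligase, had 735, 743 and 813 CPM with pool A and 197.3, 196.6 and 175.9 CPM with pool B, or a log2 difference of 2.15 ± 0.13 (SE) at an adjusted p of 2.28e-13 (edgeR). Sqstm1, the autophagy receptor that binds arginylated proteins, was opposite, at 295, 222 and 290 CPM with pool A and 1289, 1396 and 1517 CPM with pool B. The log2 difference was -2.24 ± 0.14 (SE), at an adjusted p of 3.41e-13 (edgeR). Ube2b, a ubiquitin-conjugating enzyme of Ubr1 and Ubr2, was listed at 0 in all libraries.

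Of 6 tested enzymes that expose or oxidise the first residue, 3 favoured pool A past the threshold and 0 favoured pool B, beside 18.6% and 22.0% of all tested genes. Metap2, a methionine aminopeptidase, averaged 366 ± 23 CPM in the pool A libraries and 132 ± 7 CPM in those of pool B (SD, n = 3), or a log2 difference of 1.62 ± 0.14 (SE) at an adjusted p of 1.29e-10 (edgeR). Metap1 and Ado, the dioxygenase for N-terminal cysteine, had log2 fold changes of 0.53 ± 0.16 and 1.36 ± 0.44 (SE), with edgeR adjusted p of 0.00897 and 0.0136. Metap1 was not past the threshold with total counts alone (0.38) or without pool A replicate 2 (0.45), and Ado was not without pool A replicate 1 (1.24) or pool A replicate 3 (1.19).

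Of 17 genes for reported substrates, 12 were tested, 6 favoured pool A and 1 favoured pool B past the threshold, beside 18.6% and 22.0% of all tested genes. Tardbp and App, whose protein fragments are substrates, had the largest differences, with log2 fold changes of 4.42 ± 0.17 and 3.74 ± 0.15 (SE). Tardbp, counted among the 6, was listed with earlier results for it known, so its value is a description without a p-value. For App the edgeR adjusted p was 1.18e-16. App had 1126, 931 and 1188 CPM with pool A and 105.3, 88.7 and 74.2 CPM with pool B. Rad21, the cohesin subunit, followed with 1.03 ± 0.14 (SE) at an adjusted p of 6.69e-07 (edgeR). Rgs4 and Rgs5, the best known substrates of the cysteine branch, were at 0 in all libraries.

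The other N-degron branches recognise acetylated, proline or glycine N-termini. Of 13 genes of the acetyl branch, 5 favoured pool A and 4 favoured pool B past the threshold, against shares of 18.6% and 22.0% over all tested genes. Naa10, a catalytic subunit of N-terminal acetylation, was higher with pool B, with a log2 fold change of -1.97 ± 0.18 (SE) at an adjusted p of 4.56e-10 (edgeR). Naa50, Naa35 and the ligase March6 were higher with pool A, by 2.15 ± 0.24, 1.86 ± 0.23 and 1.09 ± 0.16 (SE), with edgeR adjusted p of 2.51e-08, 1.52e-07 and 2.99e-06. Of 11 genes of the proline branch, 9 were not past the threshold, which made 18.2% called, where all tested genes gave 40.6%. Maea, a catalytic subunit of its CTLH ligase, was the exception in favour of pool A, at 562, 477 and 482 CPM against 17.0, 25.2 and 13.2 CPM, or a log2 difference of 4.96 ± 0.19 (SE) at an adjusted p of 2.26e-17 (edgeR). Ranbp10 was higher with pool B (-1.59 ± 0.21, SE, edgeR adjusted p = 4.81e-07). Of 7 genes of the glycine branch, 2 were past the threshold, or 28.6%, beside the same 40.6%. Nmt1, an N-myristoyltransferase, was higher with pool A (1.80 ± 0.16, SE, edgeR adjusted p = 3.56e-10). Zyg11b, a substrate receptor of the glycine branch, was higher with pool B (-1.11 ± 0.43, SE, edgeR adjusted p = 0.0406). The call was lost with the upper-quartile scaling (-1.01) and with the replicate block (-1.11). It was also lost with pool A replicate 1 (-1.22) or 3 (-0.81) or pool B replicate 3 (-0.80) left out.

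**Figure D4:**
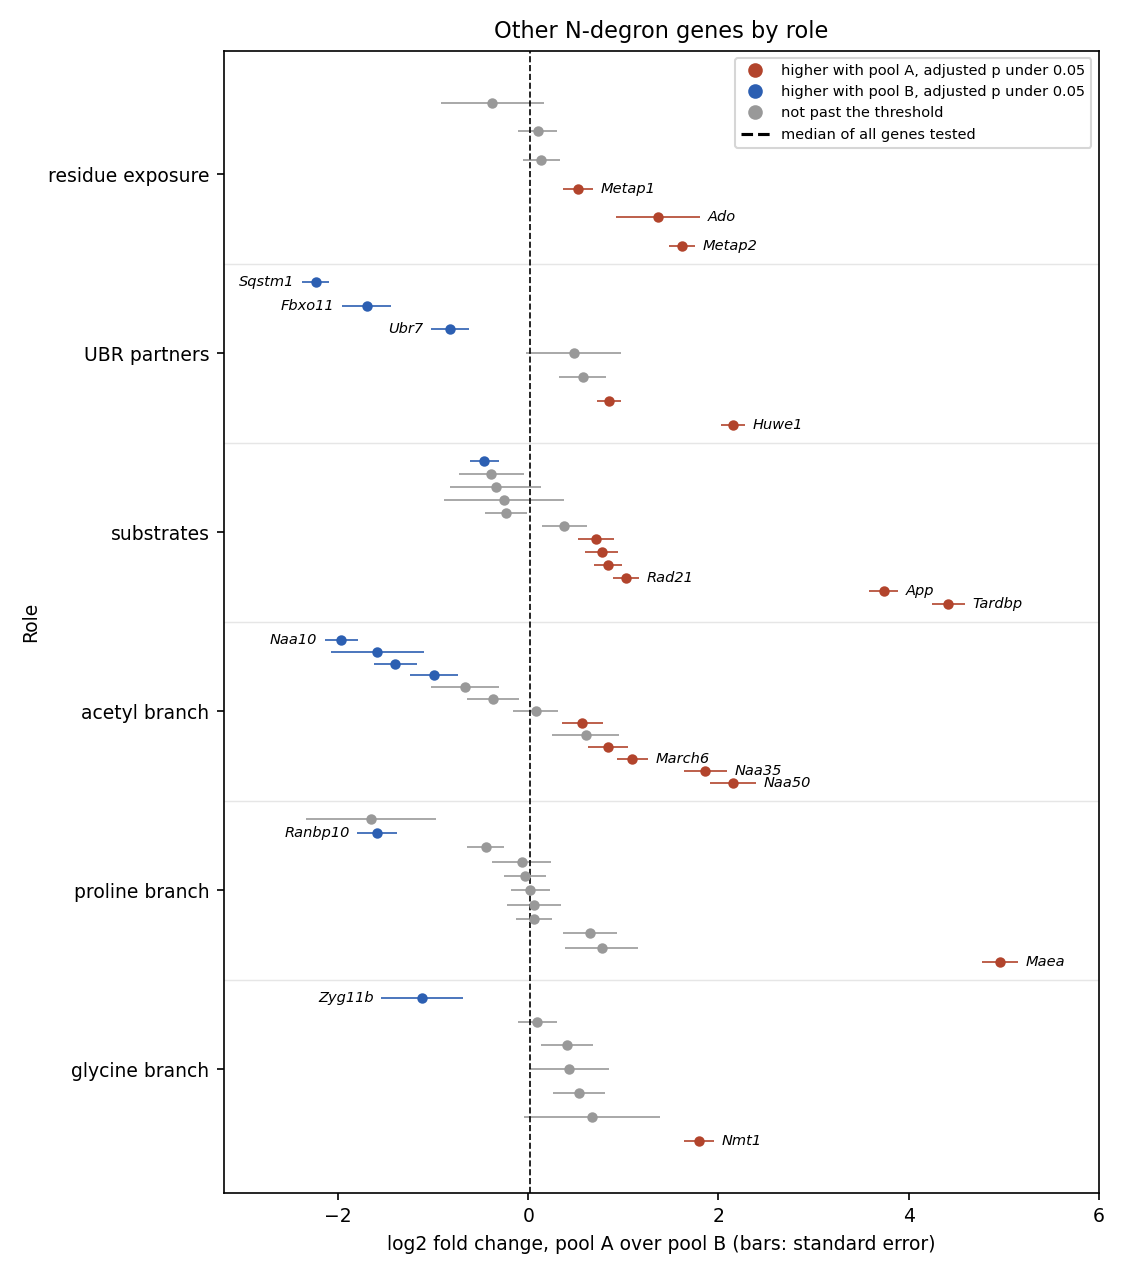
Log2 fold changes (pool A over pool B, bars for standard errors) of the 56 tested genes of the N-degron list by role, coloured by direction where the adjusted p was under 0.05. Maea, Tardbp and App stand apart on the right, at 4.96, 4.42 and 3.74, and Sqstm1 is farthest to the left at -2.24.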

How the data were processed

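The authors deposited whole-number counts per gene, without normalization, for 6 strand-specific paired-read libraries. STAR and featureCounts are named, without versions, per the submitters' processing notes, and the build, annotation, strand setting and filters are not given in the sources used here. The authors' mean per pool, a signal column deposited beside the counts, equals the mean of the 3 counts and was not used.

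Counts were tested with edgeR 4.0.16 in R 4.3.3 (TMM, filterByExpr by group, quasi-likelihood test on all 6 libraries, Benjamini-Hochberg over 11582 genes, threshold 0.05). The script was tested on simulated data. Standard errors derive from the fold change and the F statistic, and 95% intervals are 1.96 standard errors. CPM uses total counts.

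The members and lists were chosen with earlier results of these data known. The rule for named genes, some of which are not reported here, took all members, adjacent rows, the 5 genes most like Wdyhv1 and, per role, up to 3 genes by adjusted p and the most abundant gene. Nearest tested rows, count ratios and the rows around Wdyhv1 were added after seeing the data. Alternatives were other scalings, filters, DESeq2 1.42.0, limma-voom (limma 3.58.1), a replicate block and leaving out each library. Gene neighbours came from RefSeq (GRCr8), where all 7 members matched. Within pools, the chi-square between 2 libraries was between 5.86 and 20.7 per degree of freedom. That is more than resampling the same library would give, but whether the libraries came from separate cultures was not tested.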

Additional observations from a re-analysis of the deposited data

How the results depend on the processing

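For the 7 genes, whose calls are a description, the alternatives moved 1 gene across the threshold: Ubr1, with a log2 fold change of -0.46 without pool A replicate 1, and -0.56 with pool B replicate 3 left out, in a range from -0.73 to -0.46 over the left-out libraries. The number of the 7 genes higher with pool B was accordingly 0 or 1 across the fits without a library. Of 433 refits of the other named genes, 25 lost and 1 gained a call, and none of the named genes that was called changed direction. The number of the genes most like Wdyhv1 that stayed among the 5 was 3 to 5 across those fits. Calls in the list of 62 numbered from 16 to 20 and from 7 to 12 over the alternatives. Of all calls, 45.8% were higher with pool A under TMM, 36.9% when scaled by totals and 52.8% when scaled by upper quartiles.

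Replicate numbers are shared by the pools, but deviations of same-numbered libraries correlated with r of 0.041, -0.019 and 0.020, so they were not taken as pairs. With the replicate block, none of the 7 genes crossed the threshold, and 2085 and 2476 of all genes were called against 2154 and 2546. Among the named genes the block ended the calls of Zyg11b (-1.11) and Tmem62 (0.85) and changed no other call. Low counts limit Ntan1, which could not be fitted at a minimum of 10 counts in every library.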
